A study of Mus musculus with 9 samples.

Results

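Antisense long noncoding RNAs (lncRNAs) of the mouse lung were examined together with the protein-coding genes that they overlap. A row of the deposited expression table was taken as a member when GENCODE M21, on genome build GRCm38, gave its gene the type antisense and its mean level over the 9 libraries was at least 0.1 FPKM, a level in which the fragments of a transcript are scaled to its length and to the size of the library. Of 60108 rows in the table, 445 rows of 350 genes were members, and 18 further antisense rows lay under that level. Each antisense gene was paired with every protein-coding gene that it overlapped on the opposite strand, its sense partner, which gave 372 pairs for 302 of the 350 antisense genes, while 48 had no such partner. Rows are transcripts or parts of a gene as the authors assembled them, so a gene with several rows is written, for example, Airn row 3 of 4, and the partner and the antisense gene of a pair are each given as the sum of their rows.

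The lungs came from male C57BL/6 mice of 6 to 8 weeks, with 3 libraries in each of 3 groups. Control mice were intubated and breathed without a ventilator. In ventilator-induced lung injury (VILI), mice under ketamine and xylazine anaesthesia were ventilated at a tidal volume of 20 ml/kg for 4 hours and killed either at once (VILI0h) or 6 hours later (VILI6h). Each library holds whole lung, so a lower level may mean fewer cells of a type or less RNA per cell, and these cannot be told apart.

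Antisense transcripts are read from the strand opposite to a gene. Some start next to the promoter of the partner and run away from it, some meet the partner at its 3′ end, and some lie within its introns. A few, such as the imprinted Airn and Kcnq1ot1, are known to silence neighbouring genes on the chromosome that transcribes them, while many share an open promoter region with the partner and have no known role.

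The position of the members relative to each other was used to divide the pairs. In 162 pairs the genes overlapped at their 5′ parts (head to head), in 89 at their 3′ parts (tail to tail), in 87 the antisense gene lay wholly inside the partner and in 34 the partner lay inside the antisense gene. The annotated starts of 108 pairs were at most 1000 bases apart. Exons of both members overlapped in 293 pairs, in which a median of 17.96% of the antisense exon bases was shared, and 79 pairs shared no exon base.

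The sequences before the starts are shown for head to head pairs whose members changed together, since these are the pairs that the results below turn on. RefSeq windows from 250 bases before to 50 bases after a start (GRCm38.p6) were matched by symbol for 187 of 350 antisense genes and 288 of 366 partners. Those below are parts of such windows that lie outside protein-coding exons, for 0610039K10Rik (chr2:163644600-163644899, plus strand) and its partner Serinc3 (chr2:163645132-163645393, minus strand), for Zbtb18, the partner of Gm26801 (chr1:177442101-177442350, plus strand), for Ppp1r18, the partner of Ppp1r18os (chr17:35865403-35865592, plus strand), for Sphk1, the partner of Gm29292 (chr11:116530850-116530924, plus strand), and for A830082K12Rik, antisense to Nr2f1 (chr13:78197931-78198066, plus strand). Capitals mark matches on either strand to 4 motifs, and neighbouring matches may overlap. The motif of the TATA box was spelled TATAAA. For the CCAAT box the 5 letters of its name were used. The motif of the GC box was spelled GGGCGG, and the core of the cAMP response element was searched as TGACG.
0610039K10Rik: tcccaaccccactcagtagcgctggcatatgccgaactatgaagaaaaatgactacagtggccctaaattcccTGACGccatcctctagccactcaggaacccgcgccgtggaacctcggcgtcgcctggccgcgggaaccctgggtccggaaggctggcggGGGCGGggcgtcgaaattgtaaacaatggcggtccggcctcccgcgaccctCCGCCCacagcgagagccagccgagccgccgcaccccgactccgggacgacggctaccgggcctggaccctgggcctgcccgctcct
Serinc3: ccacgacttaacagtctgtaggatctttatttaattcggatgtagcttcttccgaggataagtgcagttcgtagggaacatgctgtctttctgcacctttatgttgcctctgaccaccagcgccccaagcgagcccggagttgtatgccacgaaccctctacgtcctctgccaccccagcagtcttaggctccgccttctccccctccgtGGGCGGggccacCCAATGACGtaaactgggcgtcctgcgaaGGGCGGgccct
Zbtb18: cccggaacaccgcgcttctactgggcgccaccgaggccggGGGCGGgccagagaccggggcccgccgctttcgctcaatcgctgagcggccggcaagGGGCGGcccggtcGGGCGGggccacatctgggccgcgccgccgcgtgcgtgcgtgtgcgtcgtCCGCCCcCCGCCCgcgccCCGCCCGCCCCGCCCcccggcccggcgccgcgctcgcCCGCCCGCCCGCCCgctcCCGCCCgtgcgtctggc
Ppp1r18: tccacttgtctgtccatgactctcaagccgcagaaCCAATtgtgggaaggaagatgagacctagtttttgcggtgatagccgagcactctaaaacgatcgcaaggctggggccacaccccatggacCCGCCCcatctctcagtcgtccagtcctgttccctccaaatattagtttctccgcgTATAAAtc
Sphk1: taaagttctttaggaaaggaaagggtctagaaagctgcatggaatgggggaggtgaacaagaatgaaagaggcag
A830082K12Rik: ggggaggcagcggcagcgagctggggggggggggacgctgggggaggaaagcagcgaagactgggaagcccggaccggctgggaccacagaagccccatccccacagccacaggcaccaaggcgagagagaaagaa

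The window of 0610039K10Rik held 31 CpG dinucleotides and 2 GC boxes, that of Serinc3 held 16 CpG and 2 GC boxes, and the GC-rich window of Zbtb18 (84.0% G or C) held 12 GC boxes. Ppp1r18 had 1 match each to the TATA box, the CCAAT box and the GC box. The parts shown for Sphk1 (75 bases, 44% G or C, 0 CpG) and A830082K12Rik (136 bases, 69.1% G or C, 7 CpG) are shorter and held no match to any of the 4 motifs. That of Sphk1 begins 250 bases before the start and ends well before it, so the bases next to its start were not searched. That of A830082K12Rik begins 86 bases before the start, and bases farther upstream were not searched. Over all head to head pairs with a window, the median GC content was 60% for 95 antisense genes and 61.3% for 125 partners, beside 52.7% for 27025 genes with a window. A GC box was found in 54.7% of the antisense and 63.2% of the partner windows, compared with 35.9% of all windows, and a TATA box in 9.47% and 10.4% compared with 14.2%. Tail to tail pairs were as GC-rich, with medians of 62.7% for 51 antisense genes and 59.7% for 75 partners, whereas antisense genes inside a partner had a median of 51.3% (n = 41). A match describes letters in these windows and does not identify a bound factor.

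Library facts that bear on the members are as follows. The antisense rows took up 0.125% to 0.168% of the FPKM sum of a library, and the sum of their FPKM was 588 to 615 in Control, 559 to 575 in VILI0h and 473 to 575 in VILI6h. All 9 lung markers were present. The summed level of 10 neutrophil markers was 53.8 to 65.8 FPKM in Control, 575 to 1035 in VILI0h and 495 to 2121 in VILI6h. That of 4 B cell markers was 41.1 to 54.6 in Control, 17.5 to 56.0 in VILI0h and 11.4 to 34.3 in VILI6h, the last without overlap with Control. VILI0h replicate 3 had a cardiac muscle marker sum of 302 FPKM, against 136 to 167 in the other libraries. VILI6h replicate 1 stood apart, with a summed erythroid marker level of 311 FPKM against 2090 to 3558 in the other libraries, and the counts for VILI6h are therefore also given without it. No reads or counts were used here, so the depth behind a value is unknown and its precision is known only from the spread of 3 libraries.

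Antisense RNAs were of low abundance. The median of the row means was 0.643 FPKM, 151 of the 445 rows reached 1 FPKM and 16 reached 5 FPKM, and 74 rows were listed at 0 in at least 1 library. The median partner level was 11.0 FPKM. In 313 of the 367 pairs whose partner is in the table the partner had the higher mean, and the median ratio of partner to antisense gene was 11.1.

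**Figure D1:**
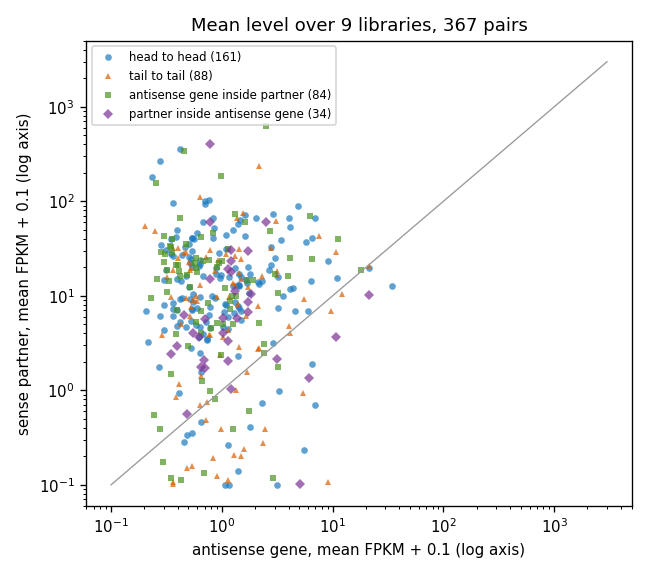
Mean FPKM + 0.1 over the 9 libraries of each antisense gene (x axis) and its sense partner (y axis), both on log axes, for 367 pairs marked by their geometry; the grey line marks equal levels. The partner lies above the line in 313 pairs.

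The row with the highest level was Tug1 row 2 of 2, of a lncRNA gene on chromosome 11 that starts 482 bases from Morc2a, a gene of chromatin silencing. Its level was 31.3, 33.4 and 35.1 FPKM in Control, 33.9, 32.1 and 31.3 in VILI0h and 27.1, 28.0 and 28.7 in VILI6h. The VILI6h libraries were below every other library. The log2 fold change was -0.25 ± 0.08 (SE) for VILI6h against Control (limma adjusted p = 0.292), and the call was lost when libraries were median-centred, without a trend in the variance or without Control replicate 3 (adjusted p from 0.488 to 0.552). Morc2a had 13.0 ± 0.15 FPKM (SD, n = 3) in Control and 12 ± 1.5 in VILI6h.

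AU040972 lies inside Nf1, a regulator of Ras, and shares no exon base with it. It was at 10.6, 18.4 and 12.2 FPKM in Control and 23.9, 18.6 and 25.8 in VILI6h, so that the groups did not overlap. The rise was 0.75 ± 0.25 on the log2 scale (adjusted p = 0.295, limma); it was lost without Control replicate 1 or 3 or VILI6h replicate 3 (adjusted p from 0.539 to 0.546). Nf1 itself was at 19.2 ± 1.0 FPKM in Control and 20.1 ± 2.2 in VILI6h. Brip1os (12.4 ± 0.51 in Control, 9.20 ± 2.9 in VILI6h) and Gm9917 row 1 of 2 (16.3 ± 1.9 and 12.3 ± 2.2) did not pass the threshold at either time. The fifth of the most abundant rows, 3300002A11Rik row 2 of 2 inside the forkhead gene Foxn3, was at 8.55 ± 2.3 FPKM in Control, 11.9 ± 1.3 in VILI0h and 7.58 ± 3.3 in VILI6h and passed only between the times (-0.72 ± 0.31, limma adjusted p = 0.672), a call lost in 11 of 17 alternatives.

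To ask how antisense RNAs changed directly after ventilation, VILI0h was compared with Control. At the study's threshold of an unadjusted P under 0.05, 54 of 445 antisense rows passed by limma, that is 12.1%, near the 11.0% of all 37300 rows tested. Of these 20 were higher and 34 lower, while 4.71% of all rows were called higher and 6.31% lower. All p-values printed are limma's after adjustment over all rows or genes, whereas rose, fell and passed refer to the unadjusted threshold. The median log2 fold change was -0.14 for antisense rows and -0.08 for all rows. Centring each library on its median moved the median of all rows by 0.12, to 0.05, and that of the antisense rows to -0.01. Centring shifts every row alike, so their distance of 0.06 could not change. The split of calls became 25 higher and 29 lower. The groups did not overlap in 118 rows, beside 24.2% of all rows. Without VILI0h replicate 3, the library with the highest cardiac muscle marker sum, 33 antisense rows passed (8.18% of all rows).

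At 6 hours after ventilation more of the rows that passed were lower. Against Control, 65 rows passed in VILI6h, 15 higher and 50 lower, or 14.6% beside 13.2% of all rows (5.73% higher, 7.51% lower). The median log2 fold change was -0.31, against -0.08 for all rows, and 67.4% of antisense rows were lower than in Control compared with 56.3% of all rows. B cell markers were lower and neutrophil markers higher in these libraries, and their part in this shift was not tested. The split was 19 higher and 39 lower with median-centred libraries. Without VILI6h replicate 1 the count was 132 (28 higher, 104 lower; 24.3% of all rows), and without VILI6h replicate 3 it was 35 (11 higher, 24 lower; 9.43% of all rows), with medians of -0.40 and -0.16. The groups did not overlap in 100 rows, while 18.6% of all rows did so. Other annotated noncoding classes had medians near that of the antisense rows, while protein-coding rows and assembled loci did not. The 453 lincRNA rows had -0.30, 381 rows of processed transcripts -0.28 and 521 rows of the annotation's type TEC -0.27, whereas 32744 protein-coding rows had -0.07 and 2417 rows of loci that the authors assembled had 0.15. Of the lincRNA, processed transcript and TEC rows that passed, 84.6%, 87.5% and 89.4% were lower, beside 76.9% for antisense and 55.7% for protein-coding rows. At 0 hours the medians of these noncoding classes were -0.15, -0.19 and -0.51, beside -0.14 for antisense rows.

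Between the times, 33 rows passed for VILI6h against VILI0h (12 higher, 21 lower; 7.42% beside 7.4% of all rows, 3.82% higher and 3.58% lower), with a median of -0.13 beside -0.01, and the groups did not overlap in 43 rows (11.4% of all rows). This count was 69 without VILI6h replicate 1 (14.3% of all rows) and 22 without VILI6h replicate 3 (6.88% of all rows). After Benjamini-Hochberg adjustment over all rows, 0 antisense rows passed in any comparison by limma (lowest adjusted p 0.154, 0.15 and 0.281), while 0.0509%, 0.0751% and 0.0214% of all rows did. Without VILI6h replicate 1, 5 rows passed for VILI0h against Control and 20 for VILI6h against Control (3 higher, 17 lower), beside 1.04% and 5.6% of all rows. Both comparisons with Control share the 3 Control libraries.

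**Figure D2:**
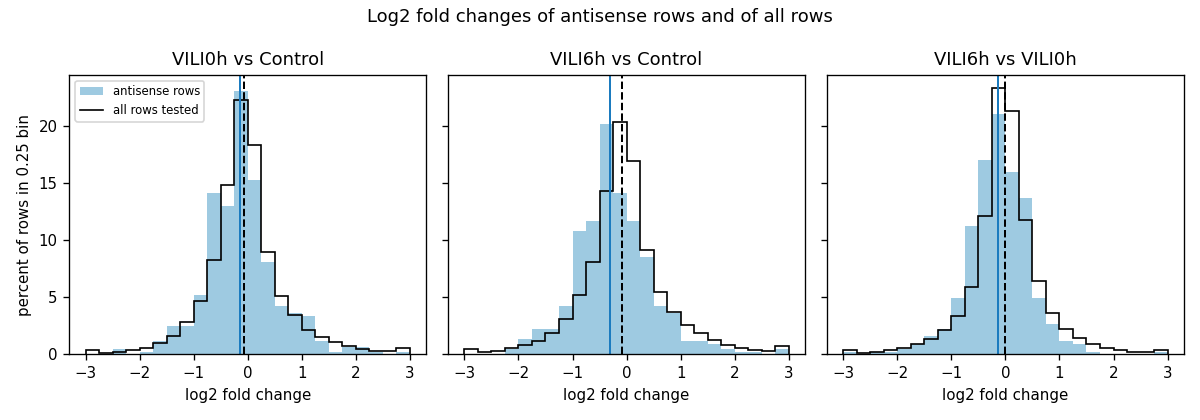
Percent of rows (y axis) in bins of the log2 fold change 0.25 wide (x axis) for 445 antisense rows (blue area) and all 37300 rows (black outline) in 3 comparisons; the blue and dashed lines mark the medians, and the end bins hold all values beyond them. The antisense median lies at -0.31 and that of all rows at -0.08 for VILI6h vs Control.

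Among the rows of at least 0.5 FPKM, Gm4610 had the largest rise at both times. Its Control libraries read 0, 0 and 0.202 FPKM, and it reached 1.04, 1.10 and 2.52 in VILI0h and 0.337, 1.81 and 1.12 in VILI6h. All ventilated libraries were above all Control libraries. The change on log2(FPKM + 0.1) was 3.4 ± 0.68 at 0 hours (limma adjusted p = 0.175) and 2.80 ± 0.68 at 6 hours (adjusted p = 0.192), and both passed in every alternative tried. With Control near 0 the size depends on the pseudocount and ranged from 1.21 to 5.69 at 0 hours and from 0.91 to 5.01 at 6 hours over pseudocounts of 1 to 0.01. A value of exactly 0 in such a table can also be a failed estimate.

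Further rises were found in F630028O10Rik, Gm11730, Snhg9 and 9530026P05Rik. F630028O10Rik row 2 of 2, of a gene with no coding partner, was at 2.35, 3.65 and 2.67 FPKM in Control, 5.13, 13.4 and 6.10 in VILI0h and 7.32, 11.9 and 14.4 in VILI6h. All 6 ventilated libraries lay above Control, and the rises of 1.37 ± 0.39 and 1.89 ± 0.39 (limma adjusted p = 0.282 and 0.15) passed in every alternative tried. F630028O10Rik row 1 of 2 did not pass (adjusted p = 0.73 and 0.94). Gm11730 row 2 of 2, also without a coding partner, was at 0.445, 0.579 and 1.33 FPKM in Control, 1.77, 3.72 and 6.40 in VILI0h and 0.263, 1.36 and 0.748 in VILI6h, so that only VILI0h stood above Control (2.15 ± 0.65, adjusted p = 0.301).

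Snhg9, a host gene of small nucleolar RNA that lies inside the ribosomal protein gene Rps2, had Control values of 0.363, 0.720 and 0 FPKM and reached 0.775, 1.15 and 1.49 in VILI0h and 0.762, 1.15 and 1.48 in VILI6h. Its change was 1.84 ± 0.71 at 0 and 1.83 ± 0.71 at 6 hours (limma adjusted p = 0.401 and 0.336), and each call was lost in 5 of 16 alternatives, at both times without Control replicate 3, at 0 hours without VILI0h replicate 2 or 3 and at 6 hours without VILI6h replicate 2 or 3. 9530026P05Rik row 3 of 4, head to head with the metalloprotease gene Adamts9, was at 0.608 ± 0.55 FPKM in Control, 2.21 ± 0.71 in VILI0h and 1.95 ± 0.77 in VILI6h. It rose by 2.27 ± 0.85 and 2.07 ± 0.85 (adjusted p = 0.38 and 0.353), calls lost in 4 and 8 of 17 alternatives, at 0 hours without VILI0h replicate 1 or 3 and at 6 hours without Control replicate 1, any 1 VILI0h library or VILI6h replicate 2 or 3. The other 3 rows of this gene did not pass.

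Gm15941 had the largest fall at 0 hours among the rows of at least 0.5 FPKM that passed. It was at 1.53, 2.26 and 1.84 FPKM in Control, 0.0940, 0.463 and 0.457 in VILI0h and 1.29, 0.859 and 0.759 in VILI6h, below Control in all ventilated libraries. The fall of 2.31 ± 0.45 at 0 hours (limma adjusted p = 0.169) passed in every alternative, whereas the difference of -0.90 ± 0.45 at 6 hours did not pass (adjusted p = 0.422). Gm16794 row 2 of 2, of a gene head to head with the exonuclease gene Xrn1, was at 1.16, 1.71 and 1.32 FPKM in Control and 0.809, 0 and 0.632 in VILI6h and fell by 1.87 ± 0.75 (adjusted p = 0.345). This was lost in 8 of 16 alternatives, among them those without any 1 Control or VILI0h library, while row 1 of 2 fell at both times (-0.98 and -0.87, adjusted p = 0.348 and 0.326).

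Erich2os starts 380 bases from Erich2 and was at 1.06, 1.44 and 1.40 FPKM in Control, 0.150, 0.436 and 0.492 in VILI0h and 0.436, 0.348 and 0.207 in VILI6h. It fell by 1.70 ± 0.41 and 1.73 ± 0.41 on the log2 scale (limma adjusted p = 0.229 and 0.187). Erich2 was at 6.90 ± 1.1 FPKM in Control, 5.77 ± 0.67 in VILI0h and 5.995 ± 1.4 in VILI6h, and did not pass (adjusted p = 0.559 and 0.537).

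E130307A14Rik row 7 of 7, antisense to the 3′ part of the interleukin-17 receptor adaptor gene Traf3ip2, was at 2.19, 2.03 and 1.67 FPKM in Control, 0.756, 0.783 and 0.827 in VILI0h and 1.75, 1.38 and 1.30 in VILI6h. It fell by 1.21 ± 0.22 in VILI0h (limma adjusted p = 0.154), the lowest adjusted p of any antisense row in that comparison, and VILI6h was 0.82 ± 0.22 above VILI0h (adjusted p = 0.489). Of the other rows of this gene, row 3 of 7 also fell at 0 hours (-0.57, adjusted p = 0.38) and row 4 of 7 rose (1.99, adjusted p = 0.443). The summed gene fell by 0.31 ± 0.12 (adjusted p = 0.235), from 10.7 ± 0.26 to 8.62 ± 0.39 FPKM. Gm11455, which has no coding partner, was at 2.65, 3.06 and 1.90 FPKM in Control, 0.727, 0.833 and 0.974 in VILI0h and 2.93, 1.37 and 1.61 in VILI6h, and fell by 1.47 ± 0.32 at 0 hours (adjusted p = 0.202).

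Gt(ROSA)26Sor row 3 of 3, from the ubiquitous transcript that overlaps the 3′ part of Thumpd3, was at 1.08, 0.960 and 0.877 FPKM in Control, 1.86, 0.993 and 0.813 in VILI0h and 2.0, 1.94 and 2.24 in VILI6h. It rose by 1.01 ± 0.30 at 6 hours (limma adjusted p = 0.257). Row 2 of 3 fell at 6 hours (-0.94, adjusted p = 0.352), with groups that overlapped. The summed gene was at 14.0 ± 2.8 in Control and 9.71 ± 3.8 FPKM in VILI6h and did not pass (adjusted p = 0.259).

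1810041H14Rik, head to head with Ubac2, was at 1.68, 1.25 and 1.41 FPKM in Control, 1.90, 2.41 and 2.88 in VILI0h and 0.947, 1.26 and 1.23 in VILI6h. It was highest in all VILI0h libraries, and from 0 to 6 hours it fell by 0.99 ± 0.24 (limma adjusted p = 0.424). Gm12764 and Gm16118 also fell from 0 to 6 hours (-1.03 ± 0.38 and -0.98 ± 0.39, adjusted p = 0.616 and 0.646). Both calls were lost without VILI0h replicate 1 or 2 or VILI6h replicate 3, that of Gm12764 also without VILI6h replicate 2 and that of Gm16118 without VILI0h replicate 3 or VILI6h replicate 1. 2010309G21Rik was at 1.36, 1.23 and 0.772 FPKM in Control, 0.740, 0.861 and 0.150 in VILI0h and 0.0754, 0.530 and 0.0682 in VILI6h. At 6 hours it did not overlap with Control and fell by 2.17 ± 0.68 (limma adjusted p = 0.269), a call that held in every alternative. The summed B cell marker level was 54.55, 41.06 and 46.78 FPKM in Control, 55.96, 33.89 and 17.54 in VILI0h and 11.41, 34.25 and 17.55 in VILI6h. The part of these cells in the fall was not tested.

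Of 30 antisense RNAs with a described role or name on a list of such RNAs, 6 were measured (Airn, Kcnq1ot1, Map2k3os, Tbx3os1, Tsix and Zeb2os, 12 rows), and in each comparison with Control 1 row passed as higher and 3 as lower, beside 11.0% of all rows at 0 hours and 13.2% at 6 hours. Of these, Tbx3os1 row 3 of 3 was lower at 6 hours by -1.97 ± 0.84 (limma adjusted p = 0.37), with groups that overlapped, and lost the call in 12 of 16 alternatives, among them each left-out library but VILI6h replicate 1. Airn, which silences Igf2r on the paternal chromosome, gave 2 of the lower rows at 0 hours. Airn row 3 of 4 was at 4.94, 5.53 and 5.14 FPKM in Control, 1.98, 2.22 and 1.89 in VILI0h and 6.89, 1.997 and 2.09 in VILI6h. VILI0h lay wholly below Control, while in VILI6h the library that stands apart, replicate 1, was above it and the other two below. The fall in VILI0h was 1.32 ± 0.42 (limma adjusted p = 0.327), and that of Airn row 4 of 4 was 1.14 ± 0.35 (adjusted p = 0.305). Row 4 of 4 also passed at 6 hours (-0.96, adjusted p = 0.315), which was lost without Control replicate 1 or 2 or VILI6h replicate 3 (adjusted p from 0.524 to 0.583). Igf2r was at 24.4 ± 2.2 FPKM in Control and 22.7 ± 2.0 in VILI0h and did not pass (adjusted p = 0.757).

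Kcnq1ot1, the transcript that silences genes around Kcnq1, was at 3.91, 3.83 and 3.62 FPKM in Control, 2.11, 2.98 and 3.41 in VILI0h and 3.18, 2.52 and 2.67 in VILI6h. Its groups did not overlap with Control at either time, but the difference of -0.43 ± 0.20 did not pass (limma adjusted p = 0.487 and 0.402). Kcnq1 itself fell by 0.42 ± 0.13 in VILI6h (adjusted p = 0.139), from 12.4 ± 0.53 to 9.29 ± 1.5 FPKM. Tsix, antisense to the X-inactivation RNA Xist, fell by 1.01 ± 0.35 in VILI6h (adjusted p = 0.299), and this was lost without Control replicate 1 or 3 or VILI6h replicate 1 (adjusted p from 0.217 to 0.552). Map2k3os was at 0.795 ± 0.095 FPKM in Control, 1.02 ± 0.14 in VILI0h and 1.0 ± 0.33 in VILI6h and did not pass (adjusted p = 0.742 and 0.723).

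The rows of Zeb2os differed. Row 1 of 2 was at 0.406, 0.0310 and 0.530 FPKM in Control, 1.19, 0.613 and 0.859 in VILI0h and 1.01, 1.10 and 1.08 in VILI6h, and rose by 1.74 ± 0.57 at 6 hours (limma adjusted p = 0.284). Row 2 of 2 went from 2.46 ± 0.30 in Control to 1.57 ± 0.51 in VILI6h and did not pass (adjusted p = 0.429), and the summed gene was at 2.78 ± 0.11 and 2.63 ± 0.46. Its partner Zeb2, a repressor of epithelial genes, fell by 0.79 ± 0.18 in VILI0h (adjusted p = 0.0865), from 60.6 ± 6.7 to 35.0 ± 4.6 FPKM.

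Sense partners changed in both directions. Of 343 partner genes tested, 68 passed for VILI0h against Control (37 higher, 31 lower; 19.8%, beside 16.2% of all 19378 genes, 6.81% higher and 9.35% lower), 78 for VILI6h against Control (40 higher, 38 lower; 22.7% beside 20.4%, 8.17% higher and 12.2% lower) and 26 between the times (12 higher, 14 lower; 7.58% beside 10%; in each direction 5.06% of all genes higher and 4.94% lower). With median-centred libraries the splits against Control were 46 higher and 17 lower at 0 hours and 57 higher and 25 lower at 6 hours. Without VILI6h replicate 1 the 3 counts were 104, 146 and 81, but 23.2%, 38.8% and 22.4% of all genes then passed as well. After adjustment over all genes by limma, 1 partner passed at 0 hours, namely Drap1 (adjusted p = 0.0414), and 2 passed at 6 hours, namely BC028528 (-0.59 ± 0.07, adjusted p = 0.0216) and Ivns1abp (-0.60 ± 0.11, adjusted p = 0.0432), beside 0.284% and 0.702% of all genes, and 0 between the times. The adjusted call of Drap1 was lost in 11 of 17 alternatives (adjusted p from 0.00477 to 0.191), that of BC028528 in 9 of 17 (0.00182 to 0.143) and that of Ivns1abp in 13 of 17 (0.0029 to 0.197). Each was lost without any 1 Control library or VILI6h replicate 2, that of Drap1 also without any 1 VILI0h library, that of BC028528 without VILI6h replicate 3, and that of Ivns1abp without any 1 VILI0h library or VILI6h replicate 3. All 3 were also lost with the replicate number as a block (Drap1 adjusted p = 0.0721) and without a trend in the variance.

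To describe whether an antisense gene and its partner moved together, their log2 fold changes were set side by side in the 349 pairs with both members tested. The members had the same sign in 58.2% of pairs at 0 hours, 57.9% at 6 hours and 52.2% between the times. For 251 antisense genes and the nearest coding gene that did not overlap them, the shares were 55.4%, 57.8% and 53.4%. Spearman's rho over the 349 pairs was 0.26, 0.26 and 0.10, and for the 251 genes and their nearest coding gene without overlap it was 0.15, 0.16 and 0.09. These correlations are across genes of the same libraries, which share their depth and their controls and in part their partners, so no p is given.

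These values differed with the geometry of the pair. In 157 head to head pairs rho was 0.51 at 0 hours and 0.41 at 6 hours, with 67.5% and 62.4% of pairs of the same sign, and 0.10 between the times. In 80 tail to tail pairs rho was -0.01, 0.06 and -0.05. It was 0.18, 0.12 and 0.17 in 79 pairs with the antisense gene inside the partner, and -0.05, 0.21 and 0.13 in 33 pairs of the reverse arrangement. Pairs with starts at most 1000 bases apart (n = 105) had 0.51 and 0.37 against Control, whereas the 244 pairs with more distant starts had 0.17 and 0.21. Whether the geometries differ was not tested.

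**Figure D3:**
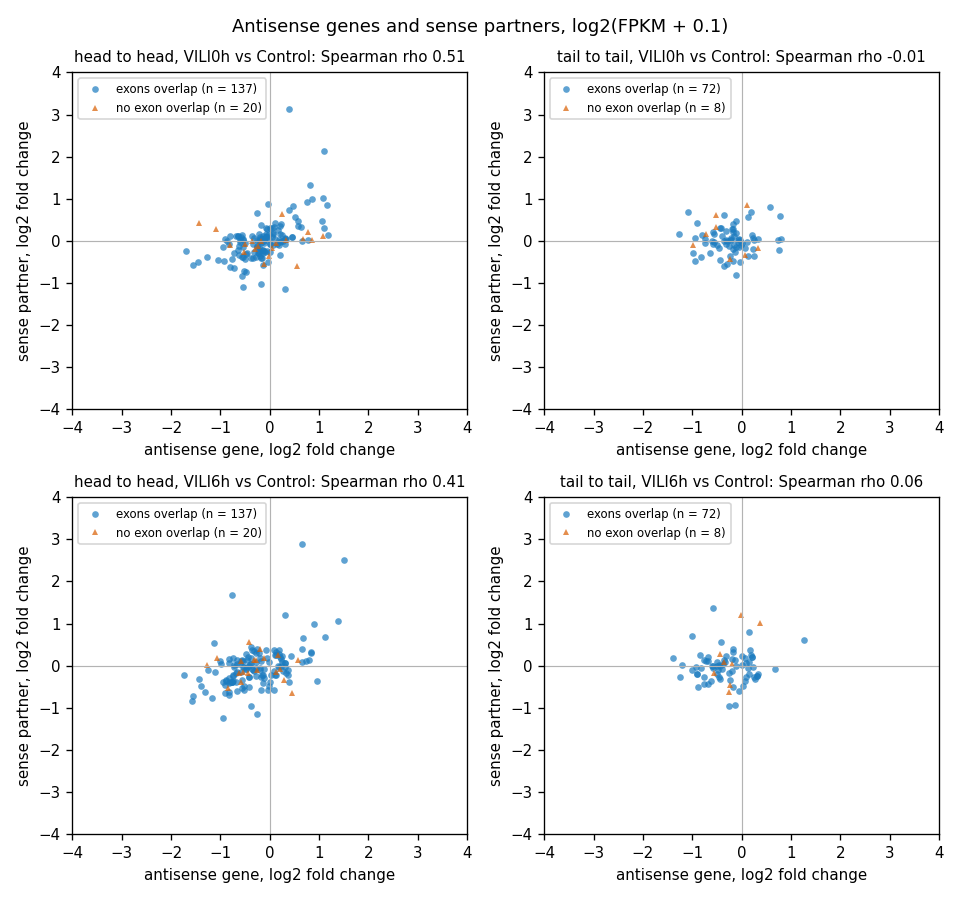
Log2 fold change of the antisense gene (x axis) and of its sense partner (y axis), on log2(FPKM + 0.1), for head to head pairs (left) and tail to tail pairs (right) at 0 hours (top) and 6 hours (bottom) against Control; circles are pairs with shared exon bases and triangles pairs without. Points rise from lower left to upper right in head to head pairs (rho 0.51 and 0.41) and not in tail to tail pairs (rho -0.01 and 0.06).

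The head to head value was positive in each library taken singly against the mean of Control. It was 0.34, 0.39 and 0.49 in the VILI0h libraries and 0.13, 0.34 and 0.37 in the VILI6h libraries, with the lowest in VILI6h replicate 1. Leaving out any 1 library gave 0.43 to 0.51 at 0 hours, the lowest without VILI0h replicate 3. At 6 hours it gave 0.28 to 0.41, the lowest without VILI6h replicate 3. The upper ends are the values with all libraries, since leaving out a library of the group not compared cannot change a fold change. No left-out library gave a higher rho. In the 57 pairs with both members at or above 1 FPKM rho was 0.34 and 0.32, while the 33 tail to tail pairs at that level had 0.21 and 0.09, so that the geometries lay closer together than over all pairs. With the most abundant row of each partner in place of the sum, head to head rho was 0.31 and 0.30.

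**Figure D4:**
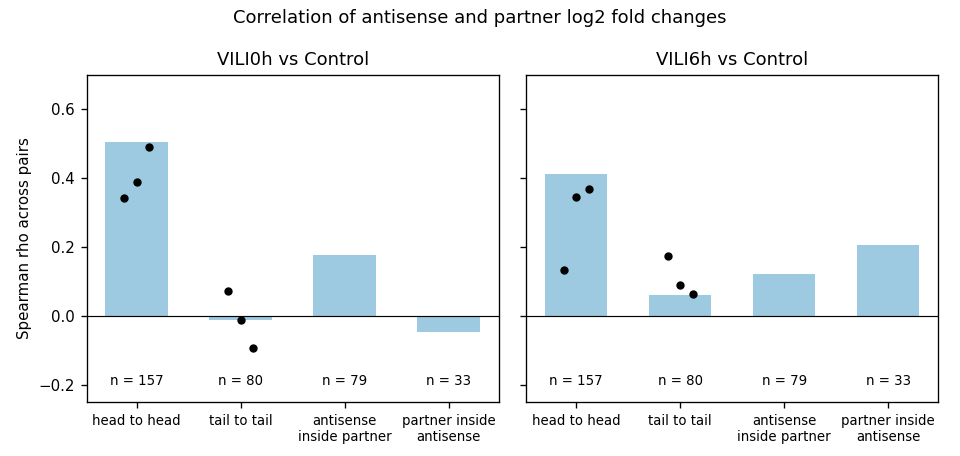
Spearman's rho between the log2 fold changes of antisense genes and partners (y axis) in 4 geometries of pairs (x axis), for VILI0h and VILI6h against Control; bars give the value for the group means, n the number of pairs, and black dots the value for each of the 3 libraries against the Control mean, drawn for the first 2 geometries. Head to head pairs reach 0.51 and 0.41, and their single libraries 0.34 to 0.49 and 0.13 to 0.37.

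In head to head pairs rho also varied with exon sharing. The deposit names a TruSeq RNA kit and the study's methods a directional kit, and the strand setting used to quantify transcripts is not given in the sources used here. If strand was not used, reads from bases that both members share cannot be told apart. Head to head pairs with shared exon bases (n = 137) had rho 0.58 at 0 hours and 0.46 at 6 hours, those with shared bases below 10% of the antisense exons, including none (n = 75), had 0.41 and 0.34, and the 20 pairs with none had 0.13 and 0.08. The share of the same sign did not follow rho at 0 hours, since it was 75% in the 20 pairs without and 66.4% in the 137 pairs with shared bases, while at 6 hours it was 40% and 65.7%. Tail to tail pairs with shared exon bases (n = 72) had 0.02 and 0.02, and the 30 pairs of any geometry with at least 50% of the antisense exon bases shared had 0.08 and 0.26. The part of shared reads in the head to head value was not tested.

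Both members passed the threshold in 12 pairs at 0 hours and 12 at 6 hours, that is in 3.44% of the 349 pairs tested each time, with the same sign in 9 pairs each time. For the nearest coding gene without overlap the counts were 9 and 10 of 251 (3.59% and 3.98%), with the same sign in 8 each time, so that the overlapping pairs were near this background. Head to head pairs made up 5 of the 12 at each time, near their share of 45% of all pairs tested, and all 10 had the same sign. At 0 hours they included Gm44710/Zfp36, 0610039K10Rik/Serinc3, 1700095J03Rik/Stk33 and Gm28523/Pde3a, and at 6 hours they were Gm29292/Sphk1, Ppp1r18os/Ppp1r18, Gm26801/Zbtb18, Gm36569/Fam198b and A830082K12Rik/Nr2f1, of which those with Stk33, Pde3a, Ppp1r18, Zbtb18, Fam198b and Nr2f1 were chosen after their values were seen. Some of these calls depended on single libraries. Stk33 lost its call without Control replicate 3 or VILI0h replicate 2 or 3, Gm28523 without Control replicate 1 or VILI0h replicate 3, and A830082K12Rik without any 1 Control library or VILI6h replicate 2 or 3, while Pde3a lost it with median-centred libraries (limma adjusted p = 0.317). Hopxos/Hopx, of a homeodomain cofactor of type I alveolar cells, also passed for both members at 6 hours (0.93 and 0.28, limma adjusted p = 0.218 and 0.227), with the antisense gene inside the partner; this pair too was chosen after its values were seen. Hopx lost the call in 8 of 17 alternatives, namely without a trend in the variance, with the replicate block (adjusted p = 0.308), and without any 1 Control library, VILI0h replicate 2 or VILI6h replicate 1 or 2. Hopxos lost it in 5 of 16, without Control replicate 2 or 3, VILI0h replicate 2 or VILI6h replicate 2 or 3.

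Zfp36 encodes tristetraprolin, a protein that binds and destabilises inflammatory mRNAs. Its antisense gene Gm44710 was at 2.71, 3.26 and 2.69 FPKM in Control, 4.26, 5.01 and 6.25 in VILI0h and 3.24, 5.19 and 2.72 in VILI6h. Zfp36 was at 34.6, 30.3 and 31.3 FPKM in Control, 60.7, 73.6 and 116 in VILI0h and 40.1, 88.2 and 116 in VILI6h. At 0 hours neither gene overlapped between the groups, and at 6 hours only Zfp36 stayed above Control. Gm44710 rose by 0.81 ± 0.24 (limma adjusted p = 0.159) and Zfp36 by 1.33 ± 0.36 (adjusted p = 0.123) at 0 hours, when neutrophil markers were also higher. The part of these cells was not tested. The pair shares 26.5% of the antisense exon bases.

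Serinc3, a membrane protein of the serine incorporator family, was at 219, 216 and 228 FPKM in Control and 418, 430 and 497 in VILI0h, and at 178, 441 and 576 in VILI6h. Its antisense gene 0610039K10Rik, with the promoter shown above and a start 281 bases away, was at 0.0976, 0.167 and 0.129 FPKM in Control, 0.492, 0.273 and 0.412 in VILI0h and 0.195, 0.629 and 0.483 in VILI6h. In VILI6h replicate 1 both members were lowest among the ventilated libraries. The log2 changes at 0 hours were 1.02 ± 0.35 for Serinc3 (limma adjusted p = 0.202) and 1.08 ± 0.39 for 0610039K10Rik (adjusted p = 0.224), and the latter was lost without Control replicate 1, VILI0h replicate 1 or VILI0h replicate 3 (adjusted p from 0.439 to 0.493). The pair shares 14.1% of the antisense exon bases.

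Sphk1, the kinase that makes sphingosine 1-phosphate, had the largest partner change among the same-sign pairs with both members past the threshold. It was at 2.21, 4.43 and 3.37 FPKM in Control, 14.8, 11.2 and 18.2 in VILI0h and 6.91, 29.4 and 31.9 in VILI6h. Gm29292, with 25.1% of its exon bases in exons of Sphk1, was at 0.870, 0.473 and 0.709 FPKM in Control, 2.36, 1.23 and 1.23 in VILI0h and 0.714, 3.53 and 3.31 in VILI6h. All ventilated libraries were above Control for Sphk1, and all but VILI6h replicate 1 for Gm29292. At 6 hours Sphk1 rose by 2.50 ± 0.52 (limma adjusted p = 0.0665) and Gm29292 by 1.5 ± 0.55 (adjusted p = 0.18), the latter not without Control replicate 2 or VILI6h replicate 2 or 3 (adjusted p from 0.406 to 0.416).

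Ppp1r18 and Ppp1r18os also rose together at 6 hours. The antisense gene was at 0.385, 0.300 and 0.134 FPKM in Control and 0.513, 1.23 and 0.914 in VILI6h, and Ppp1r18 at 14.96, 13.4 and 9.50 in Control and 16.7, 28.1 and 37.6 in VILI6h. Neither overlapped between these groups. Their log2 changes were 1.39 (limma adjusted p = 0.11) and 1.06 (adjusted p = 0.106), with 8.93% of antisense exon bases shared.

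Zbtb18, a zinc finger repressor, and Gm26801 fell together. Gm26801 was at 0.255, 0.383 and 0.678 FPKM in Control and 0.130, 0 and 0.122 in VILI6h, while Zbtb18 was at 19.2, 20.6 and 18.3 in Control and 17.0, 9.47 and 7.66 in VILI6h. Both genes were lower in every VILI6h library than in every Control library. The log2 changes were -1.57 (limma adjusted p = 0.121) and -0.85 (adjusted p = 0.134), with 3.02% of the antisense exon bases shared. The level of Gm26801 is low, and its change ranged from -2.86 to -0.40 over the alternatives.

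Pairs with the antisense gene inside the partner moved either way. Bcar3, an adaptor of integrin signalling, surrounds Gm4610, the antisense gene with the largest rise, and they share no exon base. Bcar3 was at 16.1, 15.6 and 16.0 FPKM in Control, 29.1, 21.3 and 29.1 in VILI0h and 14.8, 31.2 and 33.4 in VILI6h, so VILI6h replicate 1 was below Control. Its rise of 0.72 ± 0.27 at 0 hours (limma adjusted p = 0.245) was lost when any 1 Control library or VILI0h replicate 1 or 3 was left out (adjusted p from 0.429 to 0.512). At 6 hours its rise of 0.64 ± 0.27 (adjusted p = 0.23) was lost in 11 of 17 alternatives, among them the replicate block (adjusted p = 0.282), the fit without a trend in the variance, and those without any 1 Control library, VILI0h replicate 1 or 3 or VILI6h replicate 2 or 3.

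Adrb3, the beta-3 adrenergic receptor gene, and Gm45470 were both lower. Adrb3 was at 5.71, 4.45 and 4.82 FPKM in Control, 0.944, 2.20 and 1.51 in VILI0h and 3.26, 1.70 and 0.823 in VILI6h. Gm45470 was at 0.760, 0.507 and 0.533 in Control, 0.311, 0.424 and 0.292 in VILI0h and 0.411, 0.197 and 0.106 in VILI6h. Neither overlapped with Control at either time. At 6 hours Adrb3 fell by 1.51 ± 0.44 (limma adjusted p = 0.123) and Gm45470 by 1.13 ± 0.37 (adjusted p = 0.15); without Control replicate 1 the latter did not pass (adjusted p = 0.35).

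Opposite signs were seen in 3 of 12 pairs at each time, and none of these was head to head. Dysf, which encodes the membrane repair protein dysferlin, was at 4.77, 4.64 and 4.50 FPKM in Control, 3.59, 3.65 and 3.10 in VILI0h and 7.15, 8.21 and 5.59 in VILI6h. Gm15475 within it was at 1.57, 1.05 and 1.44 FPKM in Control, 0.470, 0.782 and 0.327 in VILI0h and 0.812, 0.544 and 0.248 in VILI6h. Dysf was thus below Control at 0 hours and above it at 6 hours, while the antisense gene was below Control at both. Gm15475 fell by 1.26 ± 0.40 and 1.28 ± 0.40 (limma adjusted p = 0.179 and 0.141). Dysf fell by 0.42 ± 0.16 at 0 hours (adjusted p = 0.244), which was lost with median-centred libraries and without Control replicate 1 or 2 or VILI0h replicate 3 (adjusted p from 0.34 to 0.512), and rose by 0.56 ± 0.16 at 6 hours (adjusted p = 0.119). The difference between the times was 0.98 ± 0.16 (adjusted p = 0.143).

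Gcnt2, a glycosyltransferase that forms branched I antigen, meets A730081D07Rik tail to tail. Gcnt2 was at 19.9, 22.7 and 22.3 FPKM in Control, 29.7, 28.6 and 29.2 in VILI0h and 26.7, 36.8 and 45.1 in VILI6h. A730081D07Rik was at 0.547, 0.754 and 0.482 in Control, 0.348, 0.220 and 0.247 in VILI0h and 0.313, 0.307 and 0.138 in VILI6h. The partner was above and the antisense gene below Control in all 6 ventilated libraries. At 6 hours Gcnt2 rose by 0.71 ± 0.17 (limma adjusted p = 0.0816) and A730081D07Rik fell by 1.0 ± 0.33 (adjusted p = 0.153), and the fall was lost without Control replicate 2 (adjusted p = 0.391). At 0 hours the rise of Gcnt2 was lost without Control replicate 1 or any 1 VILI0h library (adjusted p from 0.349 to 0.53) and the fall of A730081D07Rik without Control replicate 2 or VILI0h replicate 2 or 3 (adjusted p from 0.388 to 0.548). Pak1ip1, which A730081D07Rik meets head to head 128 bases from its start, was at 15.4 ± 0.44 and 16.9 ± 2.5 FPKM in Control and VILI6h and did not pass (adjusted p = 0.579).

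The remaining pair of opposite sign at 6 hours was Gm17546 inside Ano6, a gene of a phospholipid scramblase, with no shared exon base. Gm17546 was at 0.395, 0.449 and 0.420 FPKM in Control and 0.190, 0.169 and 0 in VILI6h, and Ano6 at 36.8, 36.2 and 34.3 in Control and 37.8, 44.5 and 48.7 in VILI6h. Neither overlapped between these groups. Gm17546 fell by 1.39 ± 0.44 (limma adjusted p = 0.144) and Ano6 rose by 0.28 ± 0.12 (adjusted p = 0.241). The level of Gm17546 is low, and its change ranged from -2.60 to -0.35 over the alternatives. The rise of Ano6 was lost in 9 of 17 alternatives, namely the replicate block (adjusted p = 0.331), the fit without a trend in the variance, and those without any 1 Control library, VILI0h replicate 2 or 3 or VILI6h replicate 2 or 3.

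The long antisense gene 4732471J01Rik spans Lipe, the hormone-sensitive lipase, and the chemokine gene Cxcl17. It was at 1.55, 1.56 and 1.08 FPKM in Control, 0.726, 0.913 and 0.738 in VILI0h and 1.15, 1.08 and 1.29 in VILI6h. Lipe was at 8.996, 10.4 and 10.7 FPKM in Control, 22.0, 18.9 and 20.8 in VILI0h and 11.1, 31.8 and 25.6 in VILI6h. At 0 hours the antisense gene lay below and Lipe above Control without overlap. The antisense gene fell by 0.74 ± 0.22 (limma adjusted p = 0.157) and Lipe rose by 1.03 ± 0.32 (adjusted p = 0.166). Cxcl17, with no exon base in common with the antisense gene, rose by 0.47 ± 0.18 at 0 hours (adjusted p = 0.246), a call lost without Control replicate 1 or 3 or VILI0h replicate 1 or 3 (adjusted p from 0.457 to 0.508). At 6 hours, when the antisense gene did not pass (adjusted p = 0.579), Cxcl17 rose by 0.83 ± 0.18 (adjusted p = 0.0716), from 22.1 ± 3.4 to 39.5 ± 8.6 FPKM.

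**Figure D5:**
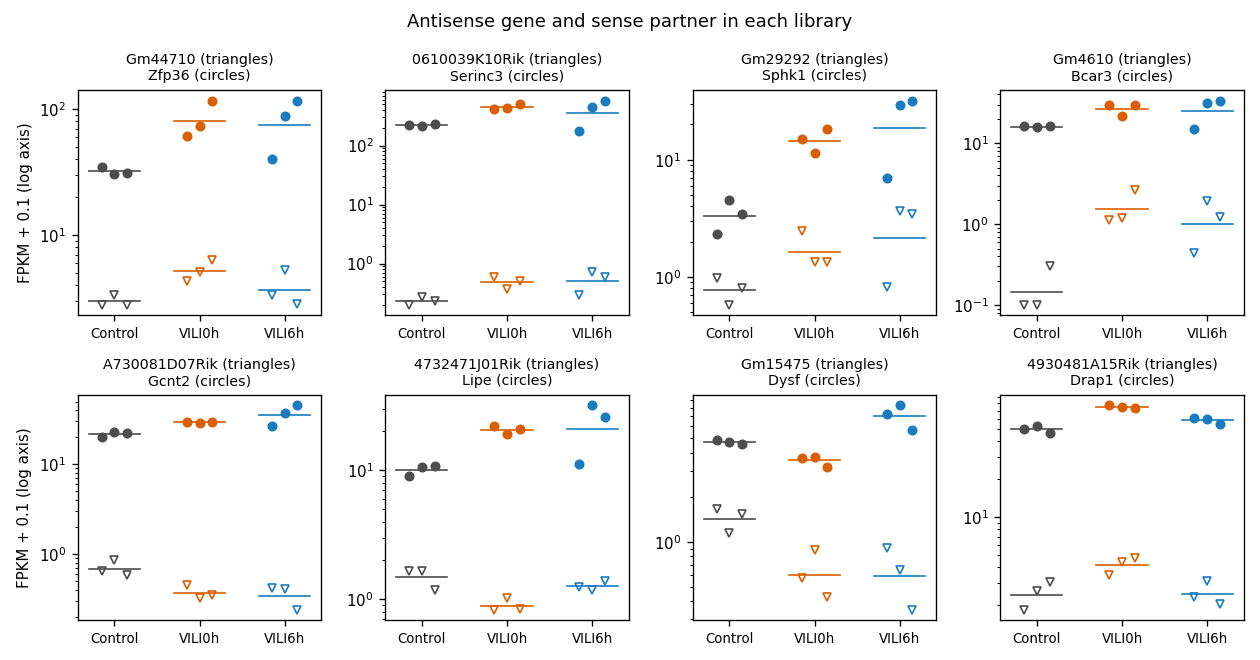
FPKM + 0.1 (y axis, log scale) of the antisense gene (open triangles) and its sense partner (filled circles) in each library of Control, VILI0h and VILI6h (x axis) for 8 pairs; lines are means of the 3 libraries on the log scale. The upper pairs move in the same direction against Control, and in the first 3 of the lower pairs partner and antisense gene move apart at 0 or 6 hours.

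Drap1, a subunit of a transcriptional corepressor, had the lowest P of the pairs in which both members passed. It was at 50.2, 53.1 and 46.5 FPKM in Control, 77.0, 75.2 and 73.7 in VILI0h and 60.9, 60.4 and 54.8 in VILI6h. Its tail to tail antisense gene 4930481A15Rik was at 1.74, 2.48 and 2.94 FPKM in Control, 3.37, 4.33 and 4.62 in VILI0h and 2.24, 3.00 and 1.95 in VILI6h. Both were highest in VILI0h without overlap with either other group. Drap1 rose by 0.59 ± 0.09 (limma adjusted p = 0.0414) and 4930481A15Rik by 0.78 ± 0.24 (adjusted p = 0.167) at 0 hours. From 0 to 6 hours they fell by 0.36 ± 0.09 (adjusted p = 0.253) and 0.76 ± 0.24 (adjusted p = 0.357). Only 1.92% of the antisense exon bases are shared.

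Partners were also read against gene lists of inflammatory mediators, lung transcription factors, the circadian clock and matrix or vascular genes. Of 46 inflammatory genes, 2 had a measured antisense gene, and of their rows 1 passed, Gm44710 at 0 hours (11.0% of all rows), a call that the row lost without VILI0h replicate 3 (limma adjusted p = 0.617). The other was Il1bos, at 0.120 to 0.134 FPKM in Control, 0.148 to 0.225 in VILI0h and 0.139 to 0.652 in VILI6h, which did not pass (limma adjusted p = 0.81 and 0.579). Its partner Il1b, the cytokine interleukin-1 beta, rose by 3.14 ± 0.64 at 0 hours (adjusted p = 0.0757), from 4.24 ± 0.86 to 44.9 ± 33 FPKM. All Il1b values in the ventilated libraries were above those of Control.

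For lung transcription factors, 13 pairs were measured, and of 13 antisense rows 1 passed as higher and 1 as lower at 0 hours, and 1 as higher and 2 as lower at 6 hours, while 4.71% and 6.31% of all rows were higher and lower at 0 hours and 5.73% and 7.51% at 6 hours. The higher row was Zeb2os row 1 of 2, whose call at 0 hours was lost in 5 of 16 alternatives, including those without Control replicate 2 or VILI0h replicate 1 or 3. The lower row at 0 hours, Tbx3os1 row 2 of 3, was lost without Control replicate 3 or VILI0h replicate 1 (adjusted p = 0.578 and 0.554). At 6 hours the lower rows were Tbx3os1 row 3 of 3, whose losses are given above, and Gm26973 row 2 of 2, antisense to Nkx2-1, at 2.79, 3.99 and 2.30 FPKM in Control and 0.620, 0.985 and 0.732 in VILI6h. The latter fell by 1.82 ± 0.50 (limma adjusted p = 0.234) and passed in all 17 alternatives, whereas Gm26973 row 1 of 2 was at 2.13 ± 0.94 FPKM in Control and 2.64 ± 0.71 in VILI6h and did not pass (adjusted p = 0.728). The summed gene fell by 0.59 at 6 hours (adjusted p = 0.111), and Nkx2-1, a master regulator of lung epithelium, was at 60.8 ± 2.2 FPKM in Control and 48.7 ± 18 in VILI6h and did not pass (adjusted p = 0.368). The Hox genes, which set position along the body axis, supplied 9 of these pairs. Hoxaas3, which overlaps Hoxa3 to Hoxa7, was at 1.21 ± 0.54 FPKM in Control, 1.18 ± 0.57 in VILI0h and 0.692 ± 0.35 in VILI6h and did not pass (limma adjusted p = 0.976 and 0.374 for the summed gene). Hoxa5 fell by 0.85 ± 0.18 at 6 hours (adjusted p = 0.0675), from 25.3 ± 0.81 to 14.2 ± 2.4 FPKM, and Hoxa4 by 0.94 ± 0.20 at 0 hours (adjusted p = 0.0785), from 4.55 ± 0.33 to 2.35 ± 0.55 FPKM. Meis1 was a further partner in this list.

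Neither the 3 antisense rows of 2 circadian partners (Ciart and Tef) nor the 2 rows of matrix and vascular partners (Angpt1 and Eln) passed in any comparison by limma. Gm17473 starts 736 bases from Angpt1, the vessel-stabilising ligand of Tie2, and was at 0.995, 0.806 and 1.26 FPKM in Control and 0.535, 0.540 and 0.490 in VILI6h (summed gene, adjusted p = 0.26). Angpt1 was at 28.8, 31.4 and 35.0 FPKM in Control and 20.9, 22.6 and 18.1 in VILI6h. Both were lower in all VILI6h libraries. Angpt1 fell by 0.63 ± 0.16 (adjusted p = 0.101).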

How the data were processed

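Lung RNA of 9 mice was sequenced. Per the study's methods, the authors aligned reads with TopHat (version 2.0.9 of TopHat2 and 2.0.6 of Bowtie2 in the submitters' processing notes), built transcripts by Scripture and Cufflinks, and quantified them by Cuffdiff 2.1.1. The deposited values are FPKM per transcript row. No counts were used here, so the reads behind a single value are unknown and precision rests on 3 libraries a group.

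Gene IDs were matched to GENCODE M21 (23580 of 23713 Ensembl IDs). Rows with a mean of at least 0.1 FPKM were tested on log2(FPKM + 0.1) with limma 3.58.1 (R 4.3.3), two-sided, with a trend in the variance and all 9 libraries in the fit; fold changes on that scale understate those of low rows. Antisense genes and partners were tested as sums of rows in a fit over all genes. P-values were adjusted by Benjamini-Hochberg over all rows or genes. With 3 libraries against 3 an exact permutation test cannot go below 0.1. It is not stated that a replicate is a separate batch of mice, so p-values measure the spread between these libraries.

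The members and gene lists were chosen with earlier results of these data known. Named rows were the 5 of highest level and the 4 largest rises and falls at or above 0.5 FPKM that passed without overlap. Named pairs were up to 3 of each sign with both members past the threshold, beside listed genes, and exceptions are marked. A further pair is not reported here. The limma script was tested on simulated data with known changes.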

Additional observations from a re-analysis of the deposited data

Results flagged for a closer look

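Named results were listed here when they passed against Control at 0 or 6 hours and VILI6h also differed from VILI0h by limma at an unadjusted P under 0.05, which is the test of whether the 2 comparisons with Control differ. After adjustment over all rows or genes none of these 16 passed (adjusted p from 0.115 to 0.646). Lower at 6 than at 0 hours, as log2 fold changes, were Gm11730 row 2 of 2 by -2.23, 1810041H14Rik by -0.99, Gm26703 by -0.96, 4930481A15Rik by -0.76, Ivns1abp by -0.87, Drap1 by -0.36, BC028528 by -0.24 and Tug1 row 2 of 2 by -0.21. Higher at 6 hours were Gm15941 by 1.41, Gm11455 by 1.07, Dysf by 0.98, Ppp1r18os by 0.92, E130307A14Rik row 7 of 7 by 0.82, Gt(ROSA)26Sor row 3 of 3 by 0.79, Tnfsf13os by 0.75 and 4732471J01Rik by 0.51. The difference between the times was lost in 10 of 17 alternatives for 4732471J01Rik and in 8 of 17 for Tug1 row 2 of 2, among them the replicate block for both (adjusted p = 0.618 for 4732471J01Rik), in 8 of 16 for Gm26703, 6 of 17 for Gt(ROSA)26Sor row 3 of 3, 6 of 16 for Ppp1r18os, 3 of 17 for Tnfsf13os and 1 of 17 for BC028528. The other 9 kept it in every alternative tried. No library was tested as an outlier, since the groups hold 3 libraries.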

How the results depend on the processing

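Of 114 named results past the threshold, 62 kept it in every alternative tried, 52 lost it in at least 1, and 0 reversed. With rows of at least 1 FPKM only, 22, 21 and 16 antisense rows passed for VILI0h against Control, VILI6h against Control and VILI6h against VILI0h (12.8%, 15.6% and 8.35% of all rows). With only the 6 libraries compared, 112 partners passed at 0 hours (26.3% of all genes), and 19 antisense rows (5.15% of all rows) and 17 partners (6.24% of all genes) passed between the times. The antisense median at 0 hours was -0.15 with a pseudocount of 0.01, -0.059 with 1 and -0.013 with median-centred libraries. The share of pairs of the same sign was 52.9% at 0 hours and 60.1% at 6 hours with the most abundant partner row, and at 6 hours 59.3% with a pseudocount of 0.01, 56.7% with 1, 54.2% at 1 FPKM or above and 53.0% with median-centred libraries. Over all pairs at 0 hours rho was 0.16 at 1 FPKM or above and 0.12 with the most abundant partner row. In head to head pairs it was 0.34 and 0.31 at 0 hours and -0.065 at 1 FPKM or above between the times, and tail to tail pairs at 0 hours had 0.21 at 1 FPKM or above. In analyses added after seeing the data, head to head pairs with no shared exon base had 0.13, 0.081 and -0.19 in the 3 comparisons, and those with under 10% shared had 0.41 at 0 hours. The cause was not tested.

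Leaving out 1 library gave 33 to 63, 35 to 132 and 22 to 69 antisense rows and 42 to 104, 47 to 146 and 19 to 81 partners, while 7.54% to 14.5%, 9.08% to 24.3% and 5.65% to 14.3% of all rows and 10.2% to 23.2%, 13.1% to 38.8% and 7.26% to 22.4% of all genes passed in these fits. The medians ranged over -0.16 to -0.12, -0.40 to -0.16 and -0.21 to -0.02, the shares of the same sign over 55.6% to 59.3%, 55.0% to 59.3% and 50.1% to 57.3%, and rho over 0.18 to 0.28, 0.21 to 0.27 and 0.070 to 0.16. Head to head rho ranged over 0.43 to 0.51, 0.28 to 0.41 and 0.06 to 0.18 and tail to tail rho over -0.076 to 0.090, -0.017 to 0.17 and -0.12 to 0.12. Leaving out a library of the group not compared cannot change medians, shares or rho, so each of these ranges includes the main value by design.

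Correlations of deviations from the group means were -0.159 to 0.026 for libraries with the same replicate number and -0.069 to 0.114 for those with different numbers. The values thus gave no sign of pairing by number, but a batch shared by replicate number was not tested. With the replicate number as a block, 49, 57 and 28 antisense rows (9.79%, 11.6% and 6.51% of all rows) and 67, 60 and 21 partners (14.5%, 18% and 8.74% of all genes) passed. In this balanced design a block cannot change a fold change.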
